A study of Mus musculus with 6 samples.

Results

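The citric acid cycle enzymes described here are the products of 9 genes: Cs, Idh2, Idh3a, Idh3g, Ogdh, Sucla2, Suclg1, Fh1 and Mdh2. They were taken as all probe sets whose single gene symbol in the array's platform annotation is one of these names. No measured value entered this rule, but the genes were chosen with earlier results of these data known. This gave 20 of the 45037 probe sets on the array that are not controls, or 9 of 18193 genes. A probe set is a group of short DNA probes that together report on the 3' part of a transcript. Idh3a had 4 of them, Cs and Sucla2 had 3 each, Idh2, Idh3g, Ogdh and Mdh2 had 2 each, and Suclg1 and Fh1 had 1 each.

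The citric acid cycle runs in the mitochondrial matrix and oxidises the acetyl groups that come from sugars, fatty acids and amino acids. It passes the electrons on to the respiratory chain as NADH and FADH2. In liver its intermediates are also drawn off for glucose, fatty acid and urea synthesis, so that oxaloacetate and malate leave the cycle and have to be refilled.

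RNA came from whole liver of male mice aged 18 weeks that had free access to chow. The obese strain was NZO (New Zealand Obese), a polygenic strain that gains weight and becomes diabetic on ordinary chow, and the control strain was C57BL/KS (BKS), whose samples are titled wild type. Each strain had 3 arrays, and neither carried a treatment or a transgene. The labels do not state that each array is a different animal, and if they are not, the p-values measure only the spread between these samples.

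All values are log2 expression values made with RMA. This method corrects background, sets arrays normalized together to a common distribution and summarises the probes of each probe set. The 6 deposited arrays did not share a distribution. The mean log2 value was 5.78 on NZO replicate 1 and 5.91 to 5.94 on the others. A difference of 1 is a factor of 2 in signal. Probe sets differ in how well they bind, so levels were compared between strains and never between genes. Values carry no detection call. Array medians lay between 5.08 and 5.22, and of the 20 probe sets 16 averaged at least 6 over the 6 arrays. The other 4, second probe sets of Idh2, Ogdh and Sucla2, averaged 4.01 to 5.70, near the array medians or below them.

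The liver label held: all 6 hepatocyte markers averaged between 12.63 and 14.73. One array stood apart before any strain comparison. The summed linear signal of the 6 hepatocyte markers was 59160 in NZO replicate 1, against 113134 and 113987 in NZO replicates 2 and 3 and 110388 to 114660 on the BKS arrays. The sum of 4 bile duct (cholangiocyte) markers, 2 of them averaging under 6, was 1014 in that array, 312 and 302 in the other NZO arrays and 287 to 353 in BKS. Against NZO replicates 2 and 3, that array was lower for macrophages (2180 against 4134 and 3502) and stellate cells (1269 against 2205 and 1847). The same held for sinusoidal endothelium (872 against 1589 and 1195) and erythroid cells (1018 against 2008 and 2037). The T and B cell sum was higher (328 against 238 and 241). The adipocyte and skeletal muscle markers all averaged under 6. The arrays titled number 1 in each strain also had the lowest spiked-in hybridization controls, 8.17 in NZO replicate 1 and 9.29 in BKS replicate 1, against 11.17 to 11.52 on the other NZO arrays and 10.17 to 10.76 on the other BKS arrays. The 3' minus 5' signal of beta-actin, a sign of RNA truncation, was 1.29 to 1.39 in NZO and 1.72 to 2.33 in BKS, and that of Gapdh was -0.04 to 0.14 in NZO and 0.45 to 0.98 in BKS. Both measures therefore moved with strain, and their part in the results below was not tested. In all probe sets averaging at least 9, NZO replicate 1 minus the mean of NZO replicates 2 and 3 had a median of -0.95. The lower hepatocyte sum on that array was thus not particular to hepatocyte markers. In whole tissue, fewer hepatocytes, less of an RNA per hepatocyte and a lower signal of an array's bright probe sets cannot be told apart.

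No cycle enzyme differed between the strains past the threshold. Of the 20 probe sets, none passed an adjusted p below 0.05 in limma's test, and their adjusted p-values ran from 0.464 to 0.949. Across all probe sets, 0.424% passed, so a count of 0 in 20 is near the background. At an unadjusted p below 0.05 there was 1 member, a probe set of Mdh2, against 10.1% of all probe sets. With each gene represented by its brightest probe set and the fit made over genes, none of the 9 genes passed, against 0.742% of all genes. The log2 differences, NZO minus BKS, ran from -0.82 to 0.27 with a median of -0.22, and 16 of 20 were below 0. The median over all probe sets was 0.00. Among probe sets averaging at least 9 it was -0.30, and 78.5% of those were below 0. The median of the 13 member probe sets at that level was -0.24.

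The 3 NZO arrays lay below the 3 BKS arrays without overlap in 6 of the 20 probe sets, against 8.49% of all probe sets. Among all probe sets averaging at least 9 the share was 18.1%, and 3 of the 13 bright members were of this kind. No member had its 3 NZO arrays above its 3 BKS arrays, against 6.83% of all probe sets. The 6 probe sets were 1 each of Idh3a, Idh3g, Ogdh, Sucla2, Fh1 and Mdh2. Their lowest BKS array lay above the highest NZO array by 0.024, 0.16, 0.056, 0.020, 0.11 and 0.27, in that order. Those of Ogdh and Sucla2 averaged only 5.70 and 4.49. Only that of Fh1 was the brightest of its gene. By brightest probe set, 1 of the 9 genes was therefore of this kind, against 10.9% of all genes.

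**Figure D1:**
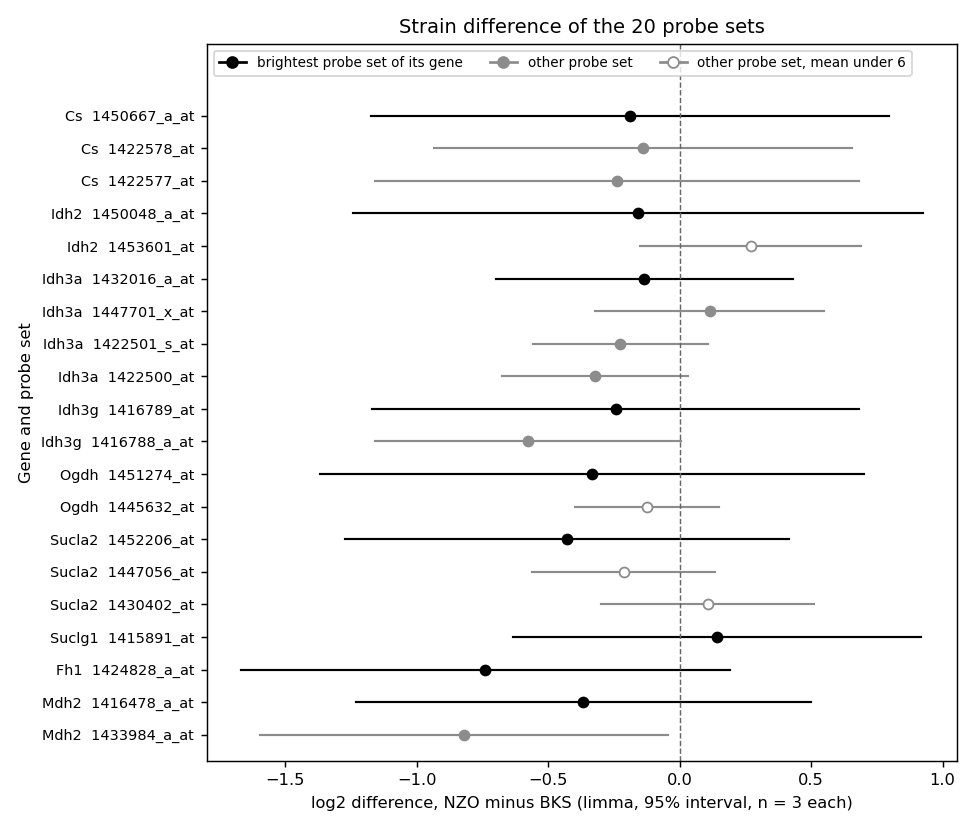
Log2 difference (NZO minus BKS, horizontal axis) of each of the 20 probe sets, in order around the cycle from top to bottom, with limma's 95% interval over 3 arrays per strain. The points run from -0.82 for a probe set of Mdh2 to 0.27 for a dim probe set of Idh2, and every interval except that of the lowest Mdh2 point spans 0.

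Citrate synthase (Cs) joins acetyl-CoA to oxaloacetate and opens the cycle. Its brightest probe set, 1450667_a_at, read 9.40, 10.96 and 10.93 in NZO replicates 1, 2 and 3, against 10.58, 10.82 and 10.46 in BKS replicates 1, 2 and 3. NZO replicate 1 was the lowest of the 6 arrays and the other NZO arrays were the highest, so the strains overlapped. The means were 10.43 ± 0.89 in NZO and 10.62 ± 0.18 in BKS (SD, n = 3 each), a log2 difference of -0.19 with a 95% interval from -1.17 to 0.80 (adjusted p = 0.931). In linear terms the NZO signal was 0.877 of that in BKS, with an interval from 0.443 to 1.74. The other probe sets of Cs gave -0.14 and -0.24, so the 3 probe sets of this gene lay within 0.10 of each other.

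**Figure D2:**
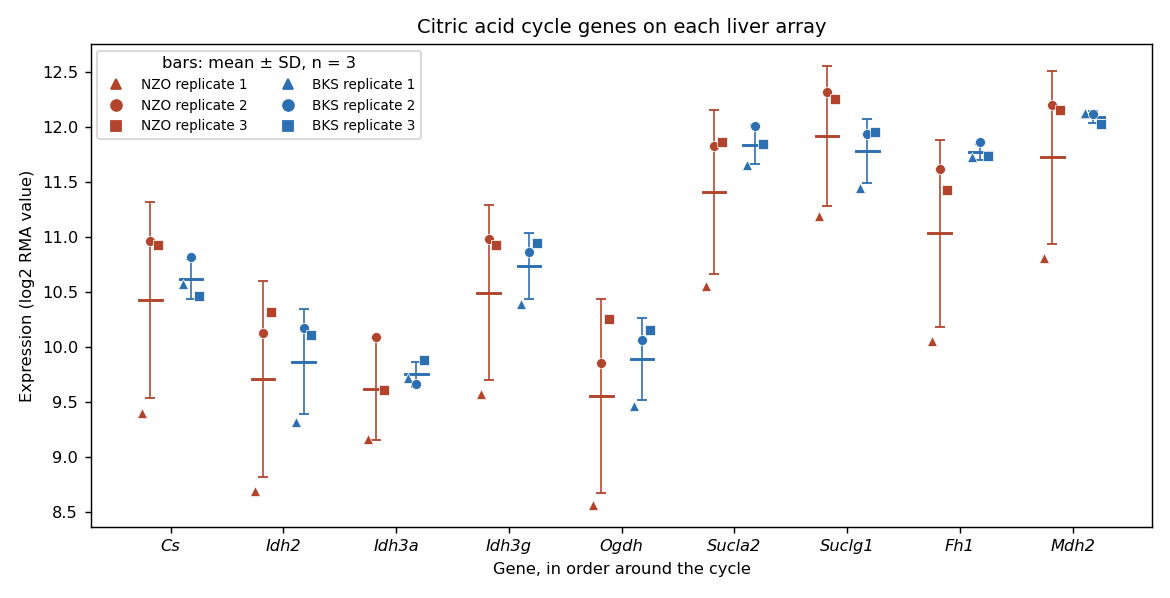
Log2 RMA value (vertical axis) of the brightest probe set of each of the 9 genes on each array, NZO left of BKS within each gene; long bars are means and error bars SD over 3 arrays. The triangle of NZO replicate 1 is the lowest point for all 9 genes, while NZO replicates 2 and 3 lie among or near the BKS arrays.

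The isocitrate dehydrogenases turn isocitrate into alpha-ketoglutarate. Idh2 is the mitochondrial form that makes NADPH, while Idh3a and Idh3g encode the catalytic and a regulatory subunit of the NAD-dependent form that belongs to the cycle proper. Idh2 read 8.69, 10.13 and 10.32 in NZO, against 9.32, 10.18 and 10.11 in BKS. In both strains replicate 1 was the lowest array, and the groups overlapped. Its log2 difference was -0.16 (95% interval -1.24 to 0.93, adjusted p = 0.949). Its second probe set averaged 4.81, under the array medians, and gave 0.27 (adjusted p = 0.706).

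Of the brightest probe sets of the 9 genes, that of Idh3a had the smallest standard error of its strain difference, 0.24 on the log2 scale. This probe set, 1432016_a_at, read 9.17, 10.09 and 9.61 in NZO, against 9.72, 9.66 and 9.88 in BKS, with a log2 difference of -0.13 (95% interval -0.70 to 0.43, adjusted p = 0.912). NZO arrays were both the highest and the lowest of the 6. Probe set 1422500_at, which averaged 6.58, read 6.44, 6.48 and 6.35 in NZO, against 6.51, 6.90 and 6.83 in BKS. These groups did not overlap, but BKS replicate 1 lay only 0.024 above the highest NZO array (log2 difference -0.32, adjusted p = 0.546). The remaining probe sets, 1422501_s_at and 1447701_x_at, may share probes with other transcripts as their suffixes mark, and gave -0.23 and 0.11.

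For Idh3g the 2 bright probe sets differed in size. Probe set 1416788_a_at read 9.58, 10.42 and 10.42 in NZO, against 10.58, 10.79 and 10.77 in BKS, so that all NZO arrays were lower (log2 difference -0.58, 95% interval -1.16 to 0.01, adjusted p = 0.504). Probe set 1416789_at read 9.58, 10.98 and 10.93 in NZO, against 10.40, 10.87 and 10.95 in BKS, where replicate 1 was the lowest array of each strain (log2 difference -0.24, adjusted p = 0.902). The difference between these probe sets was not tested.

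Ogdh encodes the first component of the alpha-ketoglutarate dehydrogenase complex, which releases the second carbon dioxide of the cycle. Its bright probe set read 8.57, 9.86 and 10.25 in NZO, against 9.46, 10.07 and 10.15 in BKS. Replicate 1 was again the lowest array of each strain. The means were 9.56 ± 0.88 in NZO and 9.89 ± 0.38 in BKS (SD, n = 3 each), and the log2 difference was -0.33 (95% interval -1.37 to 0.70, adjusted p = 0.875). A second probe set, averaging 5.70, read 5.65, 5.65 and 5.61 in NZO, against 5.78, 5.79 and 5.71 in BKS. All 3 NZO arrays lay below all 3 BKS arrays there, by a log2 difference of only -0.12 (adjusted p = 0.802).

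Succinyl-CoA synthetase makes a nucleoside triphosphate as it releases succinate. Suclg1 encodes its alpha subunit, which pairs with the ATP-specific beta subunit from Sucla2 or the GTP-specific one from Suclg2. Sucla2 read 10.55, 11.83 and 11.86 in NZO, against 11.66, 12.02 and 11.85 in BKS, with NZO replicate 1 the lowest array. NZO replicates 2 and 3 lay above BKS replicate 1, so the groups overlapped. The log2 difference was -0.43 (95% interval -1.27 to 0.42, adjusted p = 0.778). Its other probe sets averaged 4.49 and 4.01 and gave -0.21 and 0.11.

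Suclg1 was the one gene of the 9 whose brightest probe set was higher in NZO on average. It read 11.19, 12.32 and 12.26 in NZO, against 11.45, 11.94 and 11.96 in BKS. NZO replicates 2 and 3 were above every BKS array and NZO replicate 1 was below every one. The log2 difference was 0.14 (95% interval -0.63 to 0.92, adjusted p = 0.937), which in linear terms is 1.10 times the BKS signal with an interval from 0.644 to 1.89.

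Fumarase (Fh1) adds water to fumarate to make malate, in the mitochondria and also in the cytosol. It read 10.06, 11.62 and 11.43 in NZO, against 11.73, 11.86 and 11.74 in BKS. All NZO arrays were below all BKS arrays, but NZO replicate 2 lay only 0.11 below the lowest BKS array while NZO replicate 1 lay far below. The means were 11.04 ± 0.85 in NZO and 11.78 ± 0.08 in BKS (SD, n = 3 each). The log2 difference of -0.74 was the most negative among the 9 brightest probe sets, and its 95% interval ran from -1.67 to 0.19 (adjusted p = 0.612). In linear terms the NZO signal was 0.599 of that in BKS, with an interval from 0.314 to 1.14.

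Malate dehydrogenase 2 (Mdh2) closes the cycle by turning malate back into oxaloacetate. Probe set 1416478_a_at read 10.82, 12.21 and 12.16 in NZO, against 12.13, 12.12 and 12.03 in BKS. Here NZO replicates 2 and 3 were above every BKS array, and the log2 difference was -0.37 (95% interval -1.23 to 0.50, adjusted p = 0.820). Probe set 1433984_a_at read 10.10, 11.31 and 11.23 in NZO, against 11.58, 11.88 and 11.63 in BKS, with all NZO arrays below all BKS arrays. Its log2 difference was -0.82 (95% interval -1.60 to -0.04), and it was the only member below an unadjusted threshold of 0.05 in limma's test (adjusted p = 0.464). The strain difference of Mdh2 thus depended on which probe set was read, and the difference between its probe sets was not tested.

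Most of the spread within NZO came from 1 array. NZO replicate 1 was the lowest of the 6 arrays in 13 of the 20 probe sets, which were exactly the 13 averaging at least 9, and in 84.9% of all probe sets at that level. In those 13 its shift from the mean of NZO replicates 2 and 3 ran from -0.68 to -1.54 on the log2 scale, with a median of -1.29. The median shift of all probe sets at that level was -0.95, and 80% of them lay between -1.38 and -0.45. The 7 members averaging under 9 shifted by -0.21 to 0.26. BKS replicate 1 showed a smaller shift of the same kind, with a median of -0.27 in the 13 bright members and -0.32 in all probe sets at that level.

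**Figure D3:**
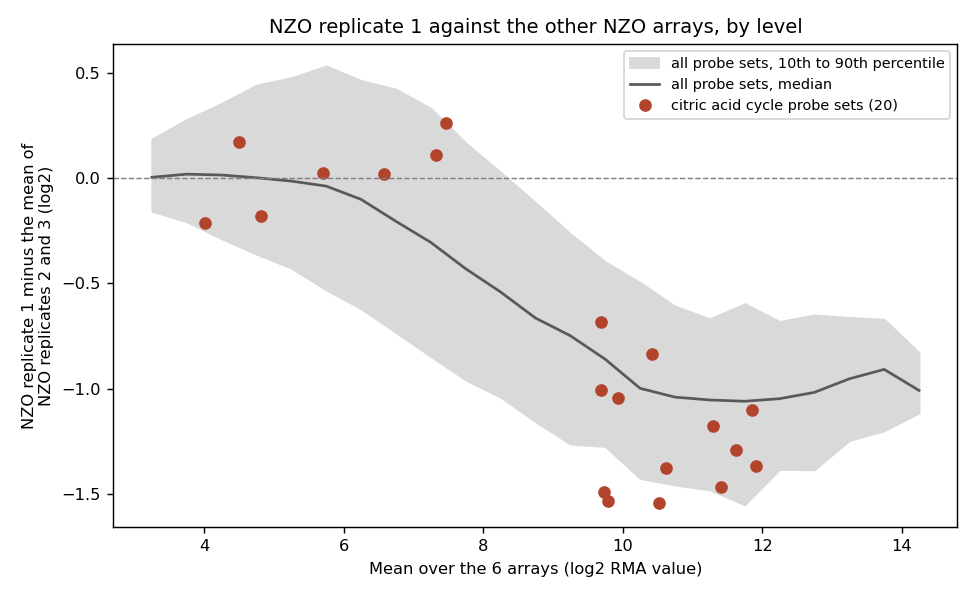
NZO replicate 1 minus the mean of NZO replicates 2 and 3 (log2, vertical axis) against the mean level over the 6 arrays (log2, horizontal axis), for the 20 member probe sets and for all probe sets as a median line with a 10th to 90th percentile band in steps of 0.5. Dim members lie near 0, and the 13 bright members lie between -0.68 and -1.54, where the line of all probe sets has also fallen to about -1.

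The arrays titled number 1, 1 per strain, were entered as a block, although the labels do not call them a batch. With this block in the fit, no member passed (adjusted p from 0.101 to 0.822), against 2.97% of all probe sets. At an unadjusted p below 0.05 there were 3 of the 20, against 18.1% of all probe sets. The block leaves each difference unchanged and lowered the median standard error of the 20 members to 0.17, against 0.33 without it. Among the other arrays alone, 2 against 2, no member passed either (lowest adjusted p = 0.187), against 2.65% of all probe sets. There 4 of the 20 had an unadjusted p below 0.05, against 17.4% of all probe sets.

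The size and sign of the differences depended on which arrays were read. Among the 9 brightest probe sets the arrays titled number 1 differed by -0.25 for Suclg1 to -1.67 for Fh1, with all 9 below 0 and no test possible for 1 array against 1. The 2 against 2 arrays differed by -0.28 for Fh1 to 0.34 for Suclg1, with 6 of 9 above 0. Cs was at 0.30 in those arrays and -1.18 between the arrays titled number 1, and Mdh2 was at 0.11 and -1.31. Fh1, Sucla2 and Ogdh were below 0 in both sets of arrays, at -0.28, -0.09 and -0.05 in the 2 against 2 arrays. Of the 4 other probe sets with a mean of at least 9, Cs 1422578_at was at 0.08 and Cs 1422577_at at -0.22, while Mdh2 1433984_a_at was at -0.49 in the 2 against 2 arrays (adjusted p = 0.188) and Idh3g 1416788_a_at at -0.36 (adjusted p = 0.266). The median of all 20 probe sets was -0.00 in the 2 against 2 arrays and -0.57 between the arrays titled number 1.

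**Figure D4:**
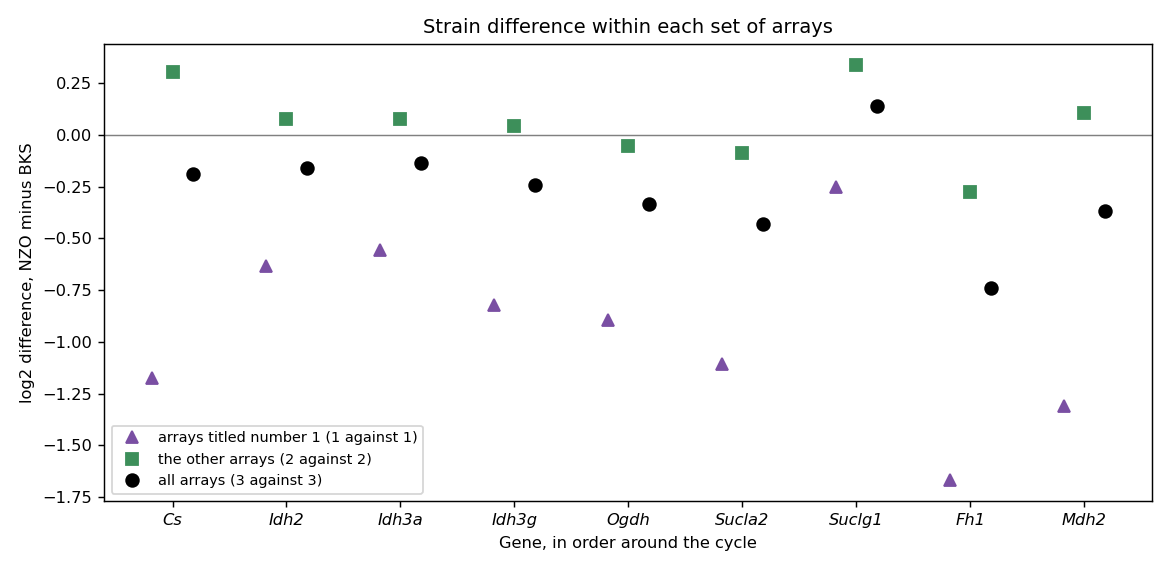
Log2 difference (NZO minus BKS, vertical axis) of the brightest probe set of each gene, from the arrays titled number 1, from the other arrays and from all arrays. All 9 triangles lie below 0, whereas 6 of the 9 squares lie above it, and Fh1 is the lowest and Suclg1 the highest gene in each set.

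Because the 9 genes shifted together from array to array, each was also set against their common level. The mean of the 9 brightest probe sets was 9.78, 11.11 and 11.08 in NZO replicates 1, 2 and 3, and 10.72, 11.06 and 11.02 in BKS replicates 1, 2 and 3. After subtracting this mean on each array, which contains the gene itself, 3 of the 9 genes had strains that did not overlap. With the same mean subtracted, this held for 9.77% of the other 18184 genes and for 24.7% of the 3183 of them that averaged at least 9. Suclg1 was higher in NZO by 0.41, with NZO arrays at 0.56, 0.36 and 0.32 and BKS arrays at -0.12, 0.03 and 0.09 around a BKS mean of 0. Fh1 was lower by 0.47, with NZO arrays at -0.57, -0.34 and -0.50 and BKS arrays at 0.17, -0.04 and -0.12. Sucla2 was lower by 0.16, with NZO arrays at -0.14, -0.20 and -0.13 and BKS arrays at 0.03, 0.04 and -0.08. The 6 remaining genes overlapped, with differences from -0.09 for Mdh2 to 0.14 for Idh3a. For the 3 genes the two-sided exact permutation p was 0.1, the smallest that 3 arrays against 3 allow. Any gene whose strains do not overlap gets this p, so it adds nothing to the lack of overlap. The subtraction makes the 9 differences sum to 0, so genes on both sides of it follow from its construction.

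**Figure D5:**
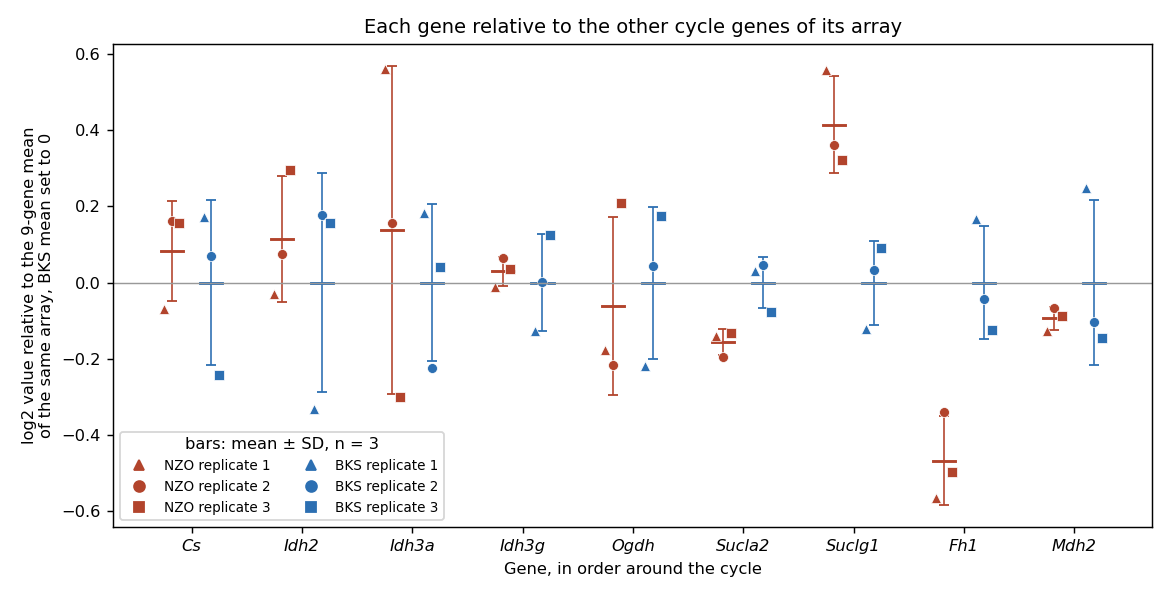
Log2 value of each gene minus the mean of the 9 genes on the same array (vertical axis), with the BKS mean of each gene set to 0; NZO is left of BKS, long bars are means and error bars SD over 3 arrays. Suclg1 sits at 0.32 to 0.56 in NZO and Fh1 at -0.57 to -0.34, outside the BKS points of each gene, and Sucla2 is lower by 0.16.

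The profile of the 9 genes over the 6 arrays was shared by many other genes. Among 9613 further genes with a mean of at least 6, those closest to it were Acbd6, Uqcrc1, Tmem167, Actr1a and Mup5. They differed from the mean profile by 0.04 to 0.06 (root-mean-square difference on the log2 scale over 6 arrays, each profile centred on its own mean). Among the members Idh3g and Sucla2 were nearest to that profile (0.08 and 0.09), and Idh3a and Fh1 farthest from it (0.28 and 0.26). Each member is itself part of the mean profile. Even so, 29 of the 9613 genes were closer to it than Idh3g, and 2728 were closer than Idh3a. The median of the 9613 genes was 0.38, but these include genes dimmer than the members.

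None of 8 further genes of the cycle passed the test either. These genes (Idh3b, Dlst, Dld, Suclg2, Sdha, Sdhb, Sdhc and Sdhd) had a median log2 difference of -0.04, a range from -0.28 to 0.22 and no member at an unadjusted p below 0.05. In 7 of the 8, NZO replicate 1 was the lowest array, against 39.8% of all genes and 84.9% of probe sets averaging at least 9. Those with the smallest p were Idh3b, the beta subunit of the NAD-dependent isocitrate dehydrogenase, at -0.26 (adjusted p = 0.805), and Sdhb, the iron-sulphur subunit of succinate dehydrogenase, at -0.16 (adjusted p = 0.845). Suclg2, the GTP-specific partner of Suclg1, was at 0.14 over all arrays (adjusted p = 0.877) and at 0.31 in the 2 against 2 arrays (adjusted p = 0.415). It is named after its values were seen. In the 2 against 2 arrays Dlst and Dld were at 0.30 and 0.25, so Suclg2 was not set apart there.

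At the entry to the cycle 1 of 15 measured genes rose, none fell and 14 did not pass, against 0.424% of all probe sets passing. In the fit over genes 1 of the 15 passed, against 0.742% of all genes. At an unadjusted p below 0.05 in limma's test there were 2 of the 15, against 12.2% of all genes. The list covers pyruvate import, pyruvate dehydrogenase with its kinases and phosphatases, pyruvate carboxylase and entry from glutamate and aspartate, and its median was -0.10. Pdk4, a kinase that switches pyruvate dehydrogenase off, read 8.36, 8.49 and 8.23 in NZO, against 6.47, 5.26 and 5.78 in BKS, without overlap. Its log2 difference was 2.52 (standard error 0.29, adjusted p = 0.0265), or 5.75 times the BKS signal. The lowest BKS value lay near the array medians and the BKS SD was 0.60, so this ratio is imprecise. The difference was 1.89 between the arrays titled number 1 and 2.84 in the 2 against 2 arrays. With the block or in the 2 against 2 arrays Pdk1 also passed, as lower in NZO, and it is named here after its values were seen (log2 difference -1.11, adjusted p = 0.0698, 0.0156 with the block and 0.0247 in the 2 against 2 arrays).

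Among 12 metabolite carriers and cytosolic counterparts none passed, and 4 had an unadjusted p below 0.05, against 12.2% of all genes. Their median was 0.12. Idh1, the cytosolic NADP-dependent isocitrate dehydrogenase, read 11.54, 12.35 and 12.34 in NZO, against 12.86, 12.83 and 12.97 in BKS, without overlap (log2 difference -0.81, adjusted p = 0.297). Cytosolic malic enzyme Me1 averaged 11.99 ± 0.37 in NZO and 11.10 ± 0.15 in BKS (SD, n = 3 each), also without overlap (log2 difference 0.89, adjusted p = 0.195). The cytosolic malate dehydrogenase Mdh1 was at -0.14 (adjusted p = 0.901). With the block the aspartate-glutamate carrier Slc25a13 passed as higher (log2 difference 0.98, adjusted p = 0.0288), and in the 2 against 2 arrays it passed again with Got1, the cytosolic aspartate aminotransferase (1.07 and 1.87, adjusted p = 0.0427 and 0.0100). Both are named after their values were seen.

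None of 10 regulators of mitochondrial genes passed, and 1 had an unadjusted p below 0.05, against 12.2% of all genes. Their median was -0.18, with 9 of 10 below 0, against 55.1% of all genes. That share rose with level, to 62.8% of all probe sets averaging at least 6 and 78.5% of those averaging at least 9. In 7 of the 10, NZO replicate 1 was the lowest array, against 39.8% of all genes and 54.8% of probe sets averaging at least 6. The coactivator Ppargc1b was at -0.80 (adjusted p = 0.234) and the transcription factor Yy1 at -0.54 (adjusted p = 0.545).

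The promoters of the genes at the ends of the relative order, Suclg1 and Fh1, and of Mdh2, whose probe sets parted, are shown so that they can be read beside these values. They are RefSeq sequences of GRCm38.p6, a C57BL/6J reference and neither strain of this study, from 250 bases before to 50 after the transcript start, written 5' to 3' on the strand of the gene. They lie at chr6:73248255-73248554 on the plus strand, chr1:175625586-175625885 on the minus strand and chr5:135778399-135778698 on the plus strand. Capitals mark every match to any of the motifs named after the sequences.
Suclg1: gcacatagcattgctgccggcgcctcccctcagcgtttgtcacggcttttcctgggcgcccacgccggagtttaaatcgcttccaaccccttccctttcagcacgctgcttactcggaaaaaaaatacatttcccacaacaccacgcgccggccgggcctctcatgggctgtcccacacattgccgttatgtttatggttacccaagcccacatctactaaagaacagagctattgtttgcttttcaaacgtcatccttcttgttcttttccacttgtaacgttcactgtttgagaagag
Fh1: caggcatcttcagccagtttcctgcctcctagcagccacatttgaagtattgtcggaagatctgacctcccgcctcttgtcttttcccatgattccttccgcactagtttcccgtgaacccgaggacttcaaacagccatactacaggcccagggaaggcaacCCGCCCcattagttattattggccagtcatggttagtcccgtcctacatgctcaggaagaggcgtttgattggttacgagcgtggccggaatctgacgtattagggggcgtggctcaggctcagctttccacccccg
Mdh2: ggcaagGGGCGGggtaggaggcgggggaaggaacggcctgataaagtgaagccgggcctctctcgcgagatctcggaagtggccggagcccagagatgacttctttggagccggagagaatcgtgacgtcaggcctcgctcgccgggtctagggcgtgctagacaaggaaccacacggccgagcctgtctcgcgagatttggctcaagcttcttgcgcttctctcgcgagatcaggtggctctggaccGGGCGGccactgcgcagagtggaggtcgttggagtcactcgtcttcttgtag

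The motifs searched, on both strands, were TCAAGGTCA (named for Esrra), GCGCANGCG (Nrf1), CCGGAAGT (Gabpa), AAGATGGC (Yy1) and GGGCGG (Sp1). Promoters were found for 8 of the 9 genes. GGGCGG was present for 6 of the 8 (Cs, Idh2, Ogdh, Sucla2, Fh1 and Mdh2), against 38.2% of the 27025 genes with a promoter in the table. GCGCANGCG was present for Ogdh and Sucla2, against 7.03% of genes, and AAGATGGC for Idh3g, against 3.19%. TCAAGGTCA and CCGGAAGT were in none of the 8, against 0.466% and 4.31% of genes. Suclg1 held none of the 5 motifs. Overlap between motifs was allowed, and a gene counts as holding a motif where any of its promoters does.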

How the data were processed

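The authors deposited log2 expression values per probe set for 6 liver arrays, which the submitters' processing notes credit to Affymetrix Expression Console and RMA; versions, and which arrays were normalized together, are not given in the sources used here. Per the labels' protocols, 8 ug of total RNA was labelled per array. The tests leave out 64 control probe sets. Of 45037 others, 34945 had 1 symbol in the platform annotation, 932 several and 9160 none. Arrays were grouped by their strain label; replicate numbers follow accession order and pair nothing.

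NZO was compared with BKS by limma's lmFit and eBayes (version 3.58.1, R 4.3.3, two-sided, no covariate), fitted on all 45037 probe sets, with Benjamini-Hochberg adjustment over all of them and a threshold of 0.05. Differences are NZO minus BKS. A gene with several probe sets is represented by the one with the highest mean. Non-member genes were named by rule: those past the test, at most 4 per list, or else the 2 with the smallest p; Suclg2, Mdh1, Pdk1, Slc25a13 and Got1 fall outside it and were named after their values were seen. Members, lists and tests were chosen with earlier results of these data known. Alternatives changed the normalization, filter, variance model, array weights, a block for the arrays titled number 1 and the arrays included. Values relative to the 9-gene mean were added after seeing the data. Promoters come from RefSeq (GRCm38.p6), and the files carry no genome build. The number of arrays limits the precision. Figures used matplotlib 3.10.9 in Python 3.11.15.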

Additional observations from a re-analysis of the deposited data

How the results depend on the processing

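No member probe set passed in any fit tried, under 9 alternatives and with each of the 6 arrays left out in turn. Over all probe sets the count of 191 became 604 with quantile normalization again, 584 with cyclic loess, 373 with a trended and robust variance, 829 with array weights, 1336 with the arrays titled number 1 as a block and 1192 in the 2 against 2 arrays, and 26 to 272 with 1 array left out. The median over the members, -0.22, was -0.034 with quantile normalization again and 0.0068 with cyclic loess. Between the arrays titled number 1 it was -0.57. With 1 array left out it ran from -0.41 without NZO replicate 2 to 0.092 without NZO replicate 1. Changes of sign, none of them past the test, occurred in 13 of the 20 probe sets, and the cause was not tested. With quantile normalization again and with cyclic loess they were Cs 1422577_at (0.0032 and 0.033), 1422578_at (0.11 and 0.14) and 1450667_a_at (0.073 and 0.11), Idh2 1450048_a_at (0.057 and 0.12), Idh3a 1432016_a_at (0.13 and 0.14) and Idh3g 1416789_at (0.027 and 0.061). In the 2 against 2 arrays they were Cs 1422578_at (0.079) and 1450667_a_at (0.30), Idh2 1450048_a_at (0.079), Idh3a 1432016_a_at (0.078), Idh3g 1416789_at (0.046) and Mdh2 1416478_a_at (0.11). With array weights they were Cs 1450667_a_at (0.093) and Idh2 1450048_a_at (0.0099), and between the arrays titled number 1 they were Idh2 1453601_at (-0.16), Idh3a 1447701_x_at (-0.021) and Suclg1 (-0.25).

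With 1 array left out, ranges that crossed 0 were -0.55 to 0.096 for Cs 1422577_at, -0.48 to 0.21 for 1422578_at and -0.45 to 0.33 for 1450667_a_at, -0.46 to 0.35 for Idh2 1450048_a_at, -0.37 to 0.094 for Idh3a 1432016_a_at, -0.49 to 0.22 for Idh3g 1416789_at, -0.61 to 0.089 for Mdh2 1416478_a_at, -0.68 to 0.16 for Ogdh 1451274_at, -0.027 to 0.21 for Sucla2 1430402_at, -0.65 to 0.0030 for Sucla2 1452206_at and -0.058 to 0.51 for Suclg1. All remaining probe sets kept their sign, among them Fh1 (-1.03 to -0.25) and Mdh2 1433984_a_at (-1.04 to -0.43). In these 2 the strains did not overlap, so leaving out 1 array could not have reversed the sign. Relative to the 9-gene mean the ranges were 0.34 to 0.46 for Suclg1, -0.53 to -0.38 for Fh1 and -0.19 to -0.13 for Sucla2. These genes were singled out because their strains did not overlap, which fixes the sign when 1 array is left out. The ranges of Cs, Idh2, Idh3a, Idh3g, Ogdh and Mdh2 all crossed 0, the widest being -0.07 to 0.36 for Idh3a. No paired analysis was possible because the titles of the strains share only number 1.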
